A study of Mus musculus with 15 samples.

Results

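The comparison described here sets the cortex of 5XFAD mice at 12 months of age against the cortex of 5XFAD mice at 6 months, with 3 libraries in each group, chosen by their titles as 6 of the 15 libraries of an age series. The question it answers is which transcript levels of the transgenic cortex differ between these ages and which stay within narrow bounds. 5XFAD mice carry human transgenes, APP among them, with mutations of familial Alzheimer's disease, driven by regulatory elements of the mouse Thy1 gene and so expressed in neurons. Both groups carry the transgenes and both are labelled C57BL/6J, so age is the only labelled difference between them. The non-transgenic controls of the same strain (WT), with 3 libraries at 6 months and 2 at 12 months, share no library with this comparison and give the change with age without the transgenes. The labels name neither pools nor individual animals. A p-value here therefore reflects only how much these libraries varied, which may in part be technical.

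Amyloid plaques build up in the 5XFAD cortex over the first months of life, earliest in the deep layers. Microglia that touch plaques take on a disease-associated state, marked by Trem2-dependent genes such as Cst7, Itgax and Gpnmb, while astrocytes become reactive and make more of the intermediate filaments Gfap and Vim. Complement, interferon-stimulated and antigen presentation genes belong to the same glial response. In RNA from whole tissue, a change in the number of cells of a type and a change in RNA per cell cannot be told apart.

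The 6 libraries held 149.7 M to 226.7 M counts each, so that for all but rare transcripts the spread between libraries, not counting error, sets the precision. Replicate 1 of both age groups carried Y-linked transcripts and no more than traces of Xist, and replicates 2 and 3 of both groups carried Xist, so each group held 1 male and 2 female libraries. The labels give no sex. In WT, replicate 1 at 6 months was male and replicates 2 and 3 were female, while both libraries at 12 months were female. The WT change from 6 to 12 months therefore also carries a difference in sex. Ttr, a transthyretin gene expressed at high levels by the choroid plexus, stood at 584 and 3721 CPM in replicates 1 and 2 at 6 months and at 39.1 CPM or less in the other 4 libraries (CPM, counts per 1000000 of the library total). Drd2, a dopamine receptor gene of striatal neurons, stood at 36.5 CPM in replicate 3 at 12 months and at 10.5 CPM or less in the other 5. The 16 excitatory neuron markers were all detected, with a summed level of 5662 to 6984 CPM over the 6 libraries. This sum and all further CPM values are scaled by TMM factors, which correct the library totals for composition.

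Thy1 and App overlapped between the ages. Thy1 stood at 2093, 2235 and 2635 CPM in replicates 1 to 3 at 6 months and at 2616, 2475 and 2609 CPM at 12 months, against 552 to 699 CPM in the 5 WT libraries of these ages. Its log2 fold change of 0.15 (SE 0.11) had a 95% interval of -0.08 to 0.37. App, whose mouse and human transcripts the table does not separate, stood at 2059, 1898 and 1837 CPM at 6 months and at 2044, 2052 and 1899 CPM at 12 months. The 2 ages overlapped, with a log2 fold change of 0.05 (SE 0.09).

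Across the transcriptome the 2 ages were hard to separate. Of 21555 genes tested, 1 passed an adjusted p (Benjamini-Hochberg) of 0.05 in edgeR's quasi-likelihood test, which is 0.00464%, and that gene was Vwf. At an unadjusted p under 0.05 there were 743 genes higher at 12 months (3.45%) and 692 lower (3.21%). The 3 values at 12 months all lay above the 3 at 6 months for 1271 genes (5.9%) and all below them for 1212 genes (5.62%). DESeq2, run as an alternative on the same counts, called 148 genes, 82 higher and 66 lower. In WT, edgeR called 0 genes, with 1024 at an unadjusted p under 0.05 and a smallest adjusted p of 0.922, and DESeq2 called 2. For the difference between the age changes of the genotypes edgeR and DESeq2 each called 0 genes, with 684 at an unadjusted p under 0.05 in edgeR. No gene was therefore shown to change with age differently in 5XFAD and WT, Vwf included.

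The precision of the comparison also gives bounds. The median SE of a log2 fold change was 0.16, and for 11888 genes (55.2%) the 95% interval of the 12 against 6 month change lay inside 1.5-fold in either direction. Genes that respond to the transgenes were taken from the contrast of 5XFAD against WT averaged over 6 and 12 months, which weighs both ages equally. It called 1846 genes (8.56%), 1382 higher and 464 lower in 5XFAD. Among the 1382, the interval of the age change lay inside 1.5-fold for 602 genes (43.6%) and inside 2-fold for 1018 (73.7%), while 780 (56.4%) were not resolved at the narrower limit. None of the 1382 was called for age by edgeR. Their median log2 fold change from 6 to 12 months was 0.13, with quartiles of 0.00 and 0.31 and a positive value for 75.8%, against a median of 0.00 over all genes tested. In WT the same genes had a median of -0.003. At an unadjusted p under 0.05, 141 of them (10.2%) were higher at 12 months and 18 (1.3%) lower, and 127 (9.19%) were higher without overlap against 18 (1.3%) lower. Their median difference from WT was 0.68 at 6 months and 0.95 at 12 months on the log2 scale, values that share the 5XFAD libraries with the age comparison.

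Genes lower in 5XFAD had narrower intervals, with a median SE of the age change of 0.09 against 0.21 for the genes higher in 5XFAD. The shares inside 1.5-fold depend on this SE and so do not compare how stable the sets were. For 402 of the 464 (86.6%) the interval of the age change lay inside 1.5-fold, and the median change was -0.02 against 0.08 in WT. Without overlap, 43 of them (9.27%) were lower at 12 months and 18 (3.88%) higher.

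**Figure D1:**
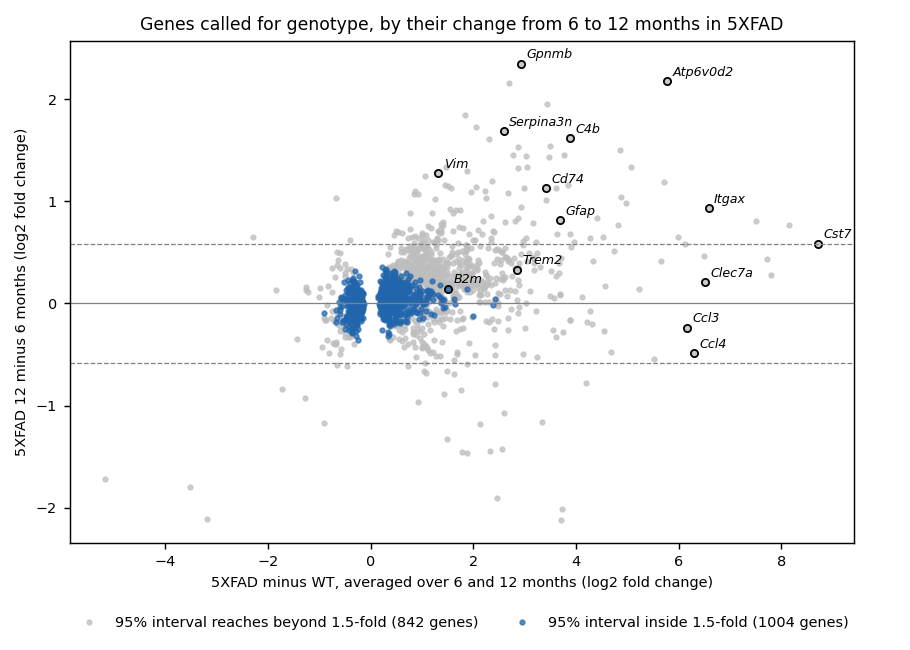
Each point is 1 of the 1846 genes called for genotype, with its log2 fold change of 5XFAD against WT averaged over 6 and 12 months on the x axis and its log2 fold change from 6 to 12 months in 5XFAD on the y axis. Dashed lines mark 1.5-fold, and blue points are genes whose 95% interval of the age change lies inside it (602 higher and 402 lower in 5XFAD); Gpnmb, C4b and Serpina3n lie far above the upper line, Ccl3 and Ccl4 lie below 0.

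Several microglial genes that were higher in 5XFAD than in WT overlapped between the ages, while others, given below, did not. Cst7, a cystatin of plaque microglia, stood at 25.5, 37.1 and 96.8 CPM in replicates 1 to 3 at 6 months and at 59.8, 82.6 and 97.0 CPM at 12 months, against 0.283 CPM or less in the 5 WT libraries. The highest library at 6 months matched the highest at 12 months. The log2 fold change was 0.58 (SE 0.48), with a 95% interval of -0.47 to 1.64. Clec7a, the beta-glucan receptor dectin-1, stood at 12.6, 21.6 and 40.8 CPM and then at 19.9, 32.8 and 34.1 CPM, a log2 fold change of 0.21 (SE 0.39). Its highest value of all was a 6-month library. At 3 months Clec7a had stood at 3.45 and 2.61 CPM, and its log2 fold change from 3 to 6 months, which uses the same 6-month libraries, was 3.04 (edgeR, adjusted p = 0.048).

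Trem2, the lipid-sensing receptor of microglia, stood at 46.6, 63.6 and 122 CPM at 6 months and at 66.7, 105 and 120 CPM at 12 months, a log2 fold change of 0.33 (SE 0.30). Tyrobp, its signalling adaptor, had a log2 fold change of 0.23 (SE 0.30). Itgax, the integrin CD11c, stood at 12.4, 16.1 and 42.5 CPM and then at 29.3, 52.3 and 54.0 CPM, with a log2 fold change of 0.93 (SE 0.41) and an overlap of 1 library. Ctse, a cathepsin, had 0.624, 0.978 and 2.11 CPM at 6 months and 1.13, 2.09 and 3.11 CPM at 12 months. The cytokine gene Tnfsf8 stood at 0.902, 1.47 and 2.87 CPM and then at 1.35, 2.82 and 3.07 CPM. In each of these genes replicate 3 was the highest library at 6 months and replicate 1 the lowest at both ages. In a further fit the libraries rich in choroid plexus or striatal transcripts were left out, 3 of this comparison and replicate 1 of WT at 3 months. Only replicate 3 then stood for 6 months. The log2 fold changes were -0.45 for Cst7, -0.64 for Clec7a, -0.51 for Trem2, -0.62 for Tyrobp and -0.07 for Itgax.

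The chemokine genes Ccl3 and Ccl4 had negative log2 fold changes. Ccl3 stood at 4.82, 7.91 and 12.0 CPM at 6 months and at 6.42, 6.93 and 7.68 CPM at 12 months, a log2 fold change of -0.24 (SE 0.38) that turned to 0.14 without replicate 3 at 6 months. Ccl4 stood at 1.78, 2.31 and 3.69 CPM and then at 2.05, 1.32 and 2.18 CPM, a log2 fold change of -0.49 (SE 0.34). Both overlapped between the ages, and both had been at or below 1.21 CPM at 3 months. Over the 18 chemokine and cytokine genes tested of 21 listed, 14 had positive values and 0 were called, with a median of 0.27 in 5XFAD and 0.60 in WT.

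Homeostatic microglial genes had values near 0. P2ry12, a purinergic receptor of surveying microglia, stood at 42.4, 54.2 and 71.2 CPM at 6 months and at 49.1, 59.7 and 64.5 CPM at 12 months, and its log2 fold change of 0.05 (SE 0.17) had a 95% interval of -0.31 to 0.40. Cx3cr1, the fractalkine receptor, had a log2 fold change of 0.24 (SE 0.22), and Tmem119 one of 0.07 (SE 0.25). All 18 listed genes were tested, 0 were called, 10 had intervals inside 1.5-fold and all 18 inside 2-fold. The median was 0.07 in 5XFAD and 0.09 in WT, and the median difference from WT was 0.89 at both ages. The 32 lysosomal genes tested gave a like picture, with 19 intervals inside 1.5-fold, 31 positive values and a median of 0.13 against 0.09 in WT.

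The largest positive value in the disease-associated microglial list was that of Gpnmb. Gpnmb, a glycoprotein of phagocytic and lipid-laden macrophages, stood at 2.99, 6.02 and 20.6 CPM at 6 months and at 25.03, 58.3 and 68.2 CPM at 12 months. No value at 12 months overlapped those at 6 months, and the 3-month libraries stood at 2.00 and 2.98 CPM. The log2 fold change of 2.35 (SE 0.62; 95% interval 0.98 to 3.72) did not pass in edgeR (adjusted p = 0.434) and passed in DESeq2 (adjusted p = 0.0351). In WT, Gpnmb stood at 2.24, 2.25 and 2.24 CPM at 6 months and at 5.15 and 2.58 CPM at 12 months.

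Mamdc2, a secreted protein of plaque microglia, stood at 1.75, 4.53 and 5.87 CPM and then at 6.93, 12.3 and 14.2 CPM, a log2 fold change of 1.46 (SE 0.38) against -0.06 in WT. Its groups did not overlap. Spp1, osteopontin, stood at 6.03, 13.9 and 39.3 CPM and then at 28.3, 65.4 and 86.9 CPM, a log2 fold change of 1.61 (SE 0.58) with an overlap of 1 library. Atp6v0d2, a component of the lysosomal proton pump, stood at 0.0863, 0.477 and 1.38 CPM at 6 months and at 1.84, 2.62 and 4.43 CPM at 12 months. Its log2 fold change was 2.18 (SE 0.70) without overlap, and that of 5XFAD against WT in the averaged contrast was 5.78. The growth factor genes Igf1 and Csf1 had log2 fold changes of 0.62 (SE 0.21) and 0.54 (SE 0.16), and Apoe, the main lipid carrier of the brain, 0.43 (SE 0.17), each with overlap.

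Of the 30 genes on the disease-associated microglial list 29 were tested and 28 were called higher in 5XFAD in the averaged contrast, which called 8.56% of all genes in either direction. From 6 to 12 months 0 of 29 were called, 26 had positive values and 3 were higher without overlap, against 5.9% of all genes. The median log2 fold change was 0.33 against 0.14 in WT and 0.00 over all genes. Without replicate 3 at 6 months, the library highest in this list at that age, the median was 0.64, and over the other omissions of 1 library it was 0.14 or higher. The summed level of the list was 4814, 5986 and 7466 CPM in replicates 1 to 3 at 6 months and 6053, 7744 and 8682 CPM at 12 months.

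**Figure D2:**
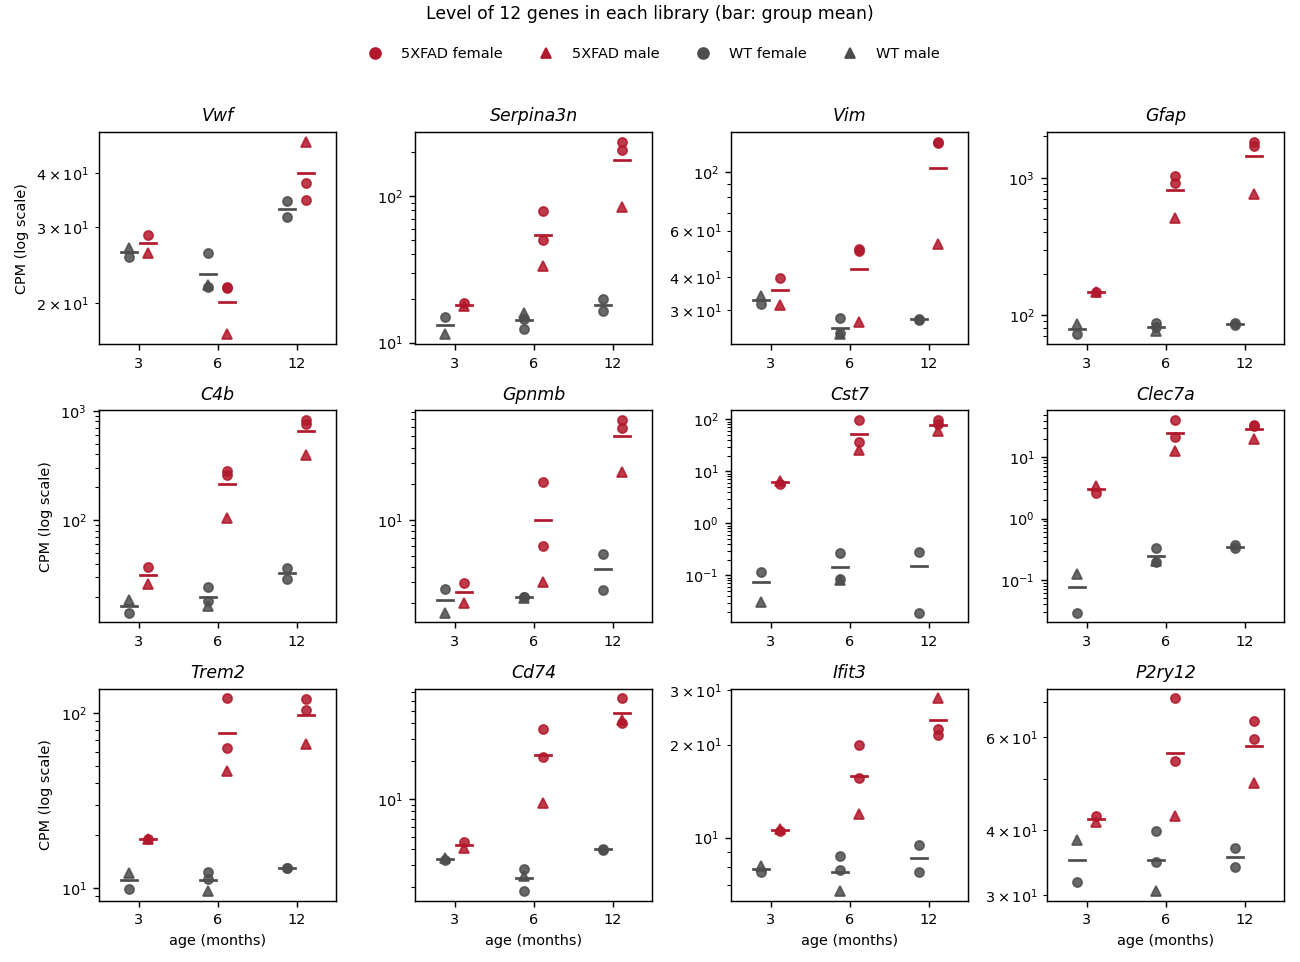
Level of 12 genes in every library at 3, 6 and 12 months, in CPM on a log axis, for 5XFAD (red) and WT (grey), with females as circles, males as triangles and group means as bars. The 12-month 5XFAD libraries lie above the 6-month ones without overlap for Vwf, Serpina3n, Vim, C4b, Gpnmb, Cd74 and Ifit3, and overlap them for Gfap, Cst7, Clec7a, Trem2 and P2ry12.

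Reactive astrocyte genes had the highest median among the glial response lists. Serpina3n, a secreted protease inhibitor, stood at 33.3, 50.1 and 79.7 CPM at 6 months and at 84.2, 234 and 208 CPM at 12 months. All 3 values at 12 months were above those at 6 months, although the male library at 12 months exceeded the highest 6-month value only narrowly. The log2 fold change was 1.69 (SE 0.37; 95% interval 0.88 to 2.49), with an adjusted p of 0.369 in edgeR and 0.00314 in DESeq2. In WT the value was 0.35. The ratio of mean CPM at 12 to 6 months within sexes was 1.34 on the log2 scale for the male libraries (1 against 1) and 1.77 for the female ones (2 against 2).

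Vim, an intermediate filament of reactive astrocytes that vascular and meningeal cells also express, stood at 27.2, 50.4 and 51.1 CPM and then at 53.2, 130 and 128 CPM, a log2 fold change of 1.27 (SE 0.31) against 0.11 in WT. It did not overlap, and DESeq2 called it (adjusted p = 0.0030). Gfap, the filament that defines astrogliosis, stood at 506, 910 and 1031 CPM at 6 months and at 763, 1825 and 1713 CPM at 12 months, against 148 and 147 CPM at 3 months and 76.7 to 87.5 CPM in WT at 6 and 12 months. The male library at 12 months lay below the female libraries at 6 months, and within sexes the log2 ratio was 0.59 for males and 0.87 for females. The pooled log2 fold change was 0.81 (SE 0.30), with an adjusted p of 0.636 in edgeR. Cp, the copper protein ceruloplasmin, stood at 8.58, 15.9 and 12.0 CPM and then at 19.4, 19.5 and 18.3 CPM, a log2 fold change of 0.65 (SE 0.17) without overlap. Stat3, a transcription factor of reactive astrocytes that was named after its values were seen, stood at 66.3, 72.8 and 85.2 CPM and then at 88.7, 102 and 108 CPM, a log2 fold change of 0.41 (SE 0.10).

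All 23 reactive astrocyte genes listed were tested and 22 had positive values. None was called by edgeR, 14 had an unadjusted p under 0.05 in the higher direction and 10 were higher without overlap, against 3.45% and 5.9% of all genes. The median was 0.71 against 0.11 in WT, and it ran from 0.48 to 0.89 when 1 library was left out. Summed over the list, the libraries stood at 1587, 2171 and 2561 CPM at 6 months and at 2303, 4140 and 4106 CPM at 12 months. Astrocyte identity markers, which do not mark reactivity, had 13 of 17 intervals inside 1.5-fold and a median of 0.13. Among them Gjb6, the gap junction protein connexin 30, stood at 38.5, 39.0 and 43.7 CPM and then at 59.9, 55.1 and 50.8 CPM, a log2 fold change of 0.45 (SE 0.10) against 0.03 in WT. The 3-month libraries were higher again for this gene, at 60.3 and 64.4 CPM. Slc1a3, the glutamate transporter GLAST, had a log2 fold change of 0.28 (SE 0.11) without overlap.

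Complement genes are expressed by several cell types of the cortex, which RNA from whole tissue does not separate. C4b, the complement component made by reactive astrocytes and oligodendrocytes, stood at 105, 261 and 279 CPM at 6 months and at 391, 766 and 823 CPM at 12 months, after 25.9 and 37.5 CPM at 3 months. The groups did not overlap, and the log2 fold change was 1.62 (SE 0.37; 95% interval 0.80 to 2.43), with an adjusted p of 0.378 in edgeR and 0.00554 in DESeq2. In WT, C4b stood at 16.5, 18.2 and 24.5 CPM at 6 months and at 28.9 and 36.9 CPM at 12 months, a log2 fold change of 0.74, and the difference between the genotypes' age changes had an unadjusted p of 0.14 in edgeR. The near-identical C4a had a log2 fold change of 1.29 (SE 0.30), and reads that fit both genes make the split between them uncertain. Serping1, the C1 inhibitor, stood at 2.44, 8.31 and 5.62 CPM and then at 12.6, 12.5 and 13.5 CPM, a log2 fold change of 1.24 (SE 0.32). C3 stood at 0.571, 2.84 and 2.46 CPM and then at 1.5, 6.28 and 8.35 CPM, with overlap. C1qa, a microglial gene, had a log2 fold change of 0.38 (SE 0.30), also with overlap. Of 20 complement genes tested of 21 listed, 19 had positive values, 6 were higher without overlap (5.9% of all genes) and 0 were called, with a median of 0.36 in 5XFAD and 0.25 in WT.

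Antigen presentation genes were taken by class. Cd74, the invariant chain of class II molecules, stood at 9.34, 21.5 and 35.7 CPM at 6 months and at 42.3, 40.3 and 62.9 CPM at 12 months. Its groups did not overlap, and the log2 fold change was 1.13 (SE 0.36) against 0.76 in WT. The class II chains H2-Aa (log2 fold change 1.13, SE 0.39), H2-Eb1 (1.10, SE 0.33) and H2-Ab1 (0.94, SE 0.38) also showed no overlap. These 4 were the class II genes higher without overlap among 9 tested (5.9% of all genes). The median of the 9 was 0.41 against 0.22 in WT, and 0.13 without replicate 1 at 6 months, the lowest library. Border macrophages also express class II genes, and their marker levels are given below with those of the meninges. B2m, the light chain of class I molecules, stood at 150, 216 and 258 CPM and then at 196, 236 and 258 CPM, and its log2 fold change of 0.15 (SE 0.16) had a 95% interval of -0.20 to 0.49. H2-K1, a class I heavy chain, had a log2 fold change of 0.34 (SE 0.19) with overlap, and Tap2, a peptide transporter, one of 0.39 (SE 0.13) without. All 13 class I genes tested had positive values, 6 of them without overlap (5.9% of all genes), with a median of 0.34 against 0.22 in WT. Reads shared among the H2 genes make their single values uncertain.

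Many interferon-stimulated genes carry in their promoters a response element bound by the transcription factor complex of type I interferon. Its core was searched on both strands as GAAA, any 2 bases and GAAA, which on the other strand reads TTTC, any 2 bases and TTTC, in the 250 bases before each RefSeq start on GRCm38.p6. It was present before 13 of the 22 tested interferon-stimulated genes in the promoter table (59.1%) and before 936 of all 27025 genes (3.46%). The promoters of the 3 list members with the matches and no overlap between the ages that the values below describe are shown 5′ to 3′ on the strand of the gene, with the matches in capitals. Their coordinates are chr19:34583279-34583528 for Ifit3, chr19:34640639-34640888 for Ifit1 and chr3:142620413-142620662 for Gbp2, all on the plus strand.
Ifit3: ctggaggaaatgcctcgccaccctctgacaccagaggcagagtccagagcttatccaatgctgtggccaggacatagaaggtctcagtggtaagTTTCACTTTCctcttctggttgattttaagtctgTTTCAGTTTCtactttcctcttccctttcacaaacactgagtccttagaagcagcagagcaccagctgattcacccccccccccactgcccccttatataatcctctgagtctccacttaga
Ifit1: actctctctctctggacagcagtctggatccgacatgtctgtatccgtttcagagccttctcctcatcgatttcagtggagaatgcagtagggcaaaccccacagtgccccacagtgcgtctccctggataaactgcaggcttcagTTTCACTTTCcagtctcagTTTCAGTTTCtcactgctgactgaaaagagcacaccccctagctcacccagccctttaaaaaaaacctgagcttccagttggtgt
Gbp2: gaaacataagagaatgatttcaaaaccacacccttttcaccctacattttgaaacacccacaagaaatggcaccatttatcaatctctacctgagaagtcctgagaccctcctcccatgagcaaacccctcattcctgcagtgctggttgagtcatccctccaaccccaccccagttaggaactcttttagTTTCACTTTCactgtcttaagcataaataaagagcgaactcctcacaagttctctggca

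Ifit3, an antiviral protein that binds RNA, stood at 11.9, 15.6 and 20.0 CPM at 6 months and at 28.3, 21.5 and 22.5 CPM at 12 months, a log2 fold change of 0.61 (SE 0.17) against 0.15 in WT. Here the male library was the lowest at 6 months and the highest at 12 months, and the log2 ratio within sexes was 1.25 for males and 0.31 for females. Ifit1 stood at 3.01, 5.08 and 6.16 CPM and then at 8.91, 7.47 and 6.80 CPM, a log2 fold change of 0.70 (SE 0.24). Gbp2, an interferon-induced GTPase, stood at 3.69, 6.35 and 6.76 CPM and then at 9.82, 8.91 and 8.76 CPM, a log2 fold change of 0.71 (SE 0.21). None passed. All 30 genes listed were tested, 29 were called higher in 5XFAD in the averaged contrast (8.56% of all genes in either direction), and 26 had positive age changes, 7 of them without overlap (5.9% of all genes), with a median of 0.35 against 0.09 in WT. Without replicate 1 at 6 months the median was 0.14. Of the 13 genes with the core, 4 (30.8%) were higher without overlap, and of the 9 without it, 2 (22.2%).

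**Figure D3:**
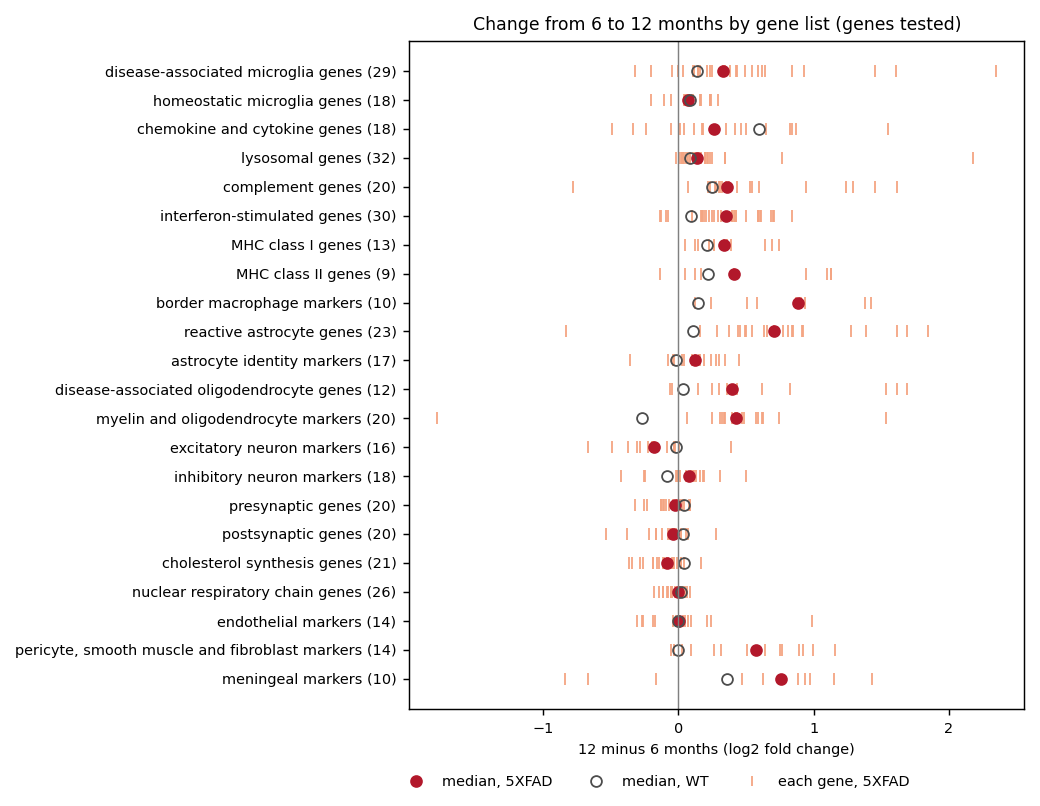
Log2 fold change from 6 to 12 months for the genes tested of 22 lists, with the number tested in brackets, showing each gene in 5XFAD as a tick, the 5XFAD median as a filled circle and the WT median as an open circle. Border macrophage markers (0.88), meningeal markers (0.76) and reactive astrocyte genes (0.71) have the highest 5XFAD medians, while presynaptic, postsynaptic and respiratory chain genes have medians of -0.02, -0.04 and -0.01.

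Oligodendrocyte genes varied between single libraries of an age. Mbp, a structural protein of myelin, stood at 1918, 2859 and 1935 CPM at 6 months and at 1764, 3723 and 3468 CPM at 12 months, a log2 fold change of 0.42 (SE 0.39) with overlap. The summed level of the 20 myelin genes was 5133, 9582 and 5045 CPM at 6 months and 4866, 9135 and 9423 CPM at 12 months, but this sum includes Enpp2, which the choroid plexus also expresses and which stood at 2354 CPM in replicate 2 at 6 months and at 229 to 492 CPM in the other 5 libraries. Without Enpp2 the sums were 4641, 7227 and 4813 CPM at 6 months and 4637, 8816 and 9076 CPM at 12 months, with replicate 1 at 12 months the lowest of the 6. Over all 20 genes, Enpp2 included, the median log2 fold change was 0.43 in 5XFAD and -0.27 in WT. In the 12 disease-associated oligodendrocyte genes, which include C4b and Serpina3n, 10 values were positive and 4 genes were higher without overlap (5.9% of all genes), with a median of 0.39. Il33, an alarmin expressed by oligodendrocytes and astrocytes, stood at 56.3, 68.6 and 59.3 CPM and then at 74.2, 126 and 127 CPM, a log2 fold change of 0.83 (SE 0.38).

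T cell markers gave mixed values, with more positive than negative. Trbc2, a constant chain of the T cell receptor, stood at 11.2, 11.9 and 12.1 CPM at 6 months and at 9.78, 9.14 and 10.5 CPM at 12 months, lower without overlap, with a log2 fold change of -0.26 (SE 0.13). Trbc2 was also lower in 5XFAD than in WT in the averaged contrast (log2 fold change -0.42). That contrast called 10 T cell genes, 9 of them higher in 5XFAD, against 8.56% of all genes in either direction. Pdcd1, the inhibitory receptor PD-1, stood at 1.23, 2.17 and 4.16 CPM and then at 2.32, 3.44 and 4.38 CPM, with overlap. Cxcr6, a chemokine receptor of tissue-resident T cells, stood at 0.0531, 0.115 and 0.130 CPM at 6 months and at 0.231, 0.540 and 0.581 CPM at 12 months, a log2 fold change of 2.16 (SE 0.80) without overlap. Cd8a stood at 0.139, 0.184 and 0.324 CPM and then at 0.276, 0.593 and 0.627 CPM, a log2 fold change of 1.20 (SE 0.49) with overlap. Cxcr6 and Cd8a were named after their values were seen, and neither passed. Of 18 T cell genes tested of 20 listed, 15 had positive values, 4 were higher without overlap (5.9% of all genes) and 1 lower (5.62% of all genes). The median was 0.55 against -0.18 in WT, and it ran from 0.20 to 0.81 when 1 library was left out.

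Vwf (ENSMUSG00000001930), the von Willebrand factor made by endothelial cells, was the gene that passed the test. It stood at 16.9, 21.7 and 21.9 CPM at 6 months and at 47.3, 38.1 and 34.6 CPM at 12 months. The groups were well apart, with the male library the lowest at 6 months and the highest at 12 months. The level rose by 0.99 on the log2 scale (SE 0.13; 95% interval 0.72 to 1.26), with a Benjamini-Hochberg adjusted p of 0.0499 in edgeR and 1.28e-08 in DESeq2. The edgeR call was at the threshold. It was lost without replicate 1 at 6 months (adjusted p = 0.225) and without replicate 1 (0.0931) or replicate 2 (0.185) at 12 months. At 3 months the 5XFAD libraries had stood at 26.2 and 28.8 CPM, above all 3 at 6 months. In WT, Vwf stood at 22.0, 21.8 and 26.2 CPM at 6 months and at 31.6 and 34.6 CPM at 12 months, a log2 fold change of 0.51, and the difference between the genotypes' age changes had an unadjusted p of 0.022 in edgeR. The other endothelial markers did not share this value. The median of the 14 tested was 0.01, 13 of 14 had intervals inside 1.5-fold, and their summed level was 440.8 to 483.2 CPM at 6 months and 454.1 to 491.5 CPM at 12 months.

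Some of the genes with the next smallest p-values and no overlap between the ages follow, given as not passing. Cav1, the caveola protein caveolin 1, stood at 12.7, 12.9 and 12.5 CPM and then at 18.5, 17.4 and 16.4 CPM, a log2 fold change of 0.46 (SE 0.08) against -0.01 in WT. F3, tissue factor, the trigger of coagulation and in brain an astrocyte product, stood at 32.9, 35.1 and 36.5 CPM and then at 48.9, 47.6 and 49.3 CPM, a log2 fold change of 0.48 (SE 0.08) against -0.12 in WT. Both had libraries that agreed closely within each age, and the smallest adjusted p among them was 0.291 in edgeR. Rida stood at 28.8, 35.6 and 34.6 CPM and then at 46.6, 45.9 and 46.5 CPM, after 22.7 and 22.8 CPM at 3 months. Its log2 fold change was 0.49 (SE 0.09) against -0.11 in WT. Rida was also called higher in 5XFAD in the averaged contrast, which called 8.56% of all genes in either direction. Slc13a3, a dicarboxylate transporter of astrocytes and meninges, had a log2 fold change of 0.84 (SE 0.15), Slc1a5, a neutral amino acid transporter, 0.89 (SE 0.18), and the actin regulator Cnn2 0.74 (SE 0.15). Emp3, a membrane protein, had 0.94 (SE 0.18), Wipf3 0.50 (SE 0.09), and Rgs16, a regulator of G protein signalling, 0.67 (SE 0.14). Sik3, a salt-inducible kinase, stood at 155, 151 and 148 CPM and then at 199, 196 and 184 CPM, a log2 fold change of 0.35 (SE 0.08). For Cav1, Rgs16, Slc13a3, Emp3, Cnn2, Wipf3 and Gjb6 the 2 libraries at 3 months both lay above the highest library at 6 months, the libraries shared by the comparisons with 3 and with 12 months.

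Among genes lower at 12 months, Pcdh20, a protocadherin, stood at 26.98, 27.3 and 20.8 CPM and then at 10.4, 14.5 and 10.5 CPM, a log2 fold change of -1.08 (SE 0.18) against -0.33 in WT. Nptxr, the neuronal pentraxin receptor of synapses, stood at 40.1, 33.4 and 20.6 CPM and then at 16.3, 9.98 and 13.6 CPM, a log2 fold change of -1.24 (SE 0.23). Nptxr was also lower at 12 than at 6 months in WT, with a log2 fold change of -0.88. The WT libraries stood at 30.05, 32.7 and 37.3 CPM at 6 months and at 20.3 and 16.0 CPM at 12 months. At 3 months the WT libraries stood lower again, at 12.0 and 14.9 CPM, and the 5XFAD ones at 28.1 and 30.6 CPM. Nr2f1, a transcription factor that patterns cortical areas, had -0.63 (SE 0.14), and the layer 4 marker Rorb -0.67 (SE 0.25). For Rorb, replicate 1 at 6 months, at 112 CPM, stood far above the other 5 libraries at 47.0 to 68.9 CPM. Arhgap42, a GTPase-activating protein, had -0.74 (SE 0.14), the Wnt ligand Wnt9a -0.61 (SE 0.12), the splicing factor Rbm20 -0.67 (SE 0.15), the protease Fap -0.83 (SE 0.19) and the hormone gene Erfe -1.17 (SE 0.24). None of these passed in edgeR, and DESeq2 called all of them but Rorb. For Pcdh20, at 17.3 and 14.5 CPM, and for Arhgap42, Rbm20 and Fap, the 5XFAD libraries at 3 months lay below the lowest library at 6 months. Those 6-month libraries are shared by the comparisons with 3 and with 12 months. For Nptxr, Nr2f1, Wnt9a and Erfe the 3-month values reached into the 6-month range.

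**Figure D4:**
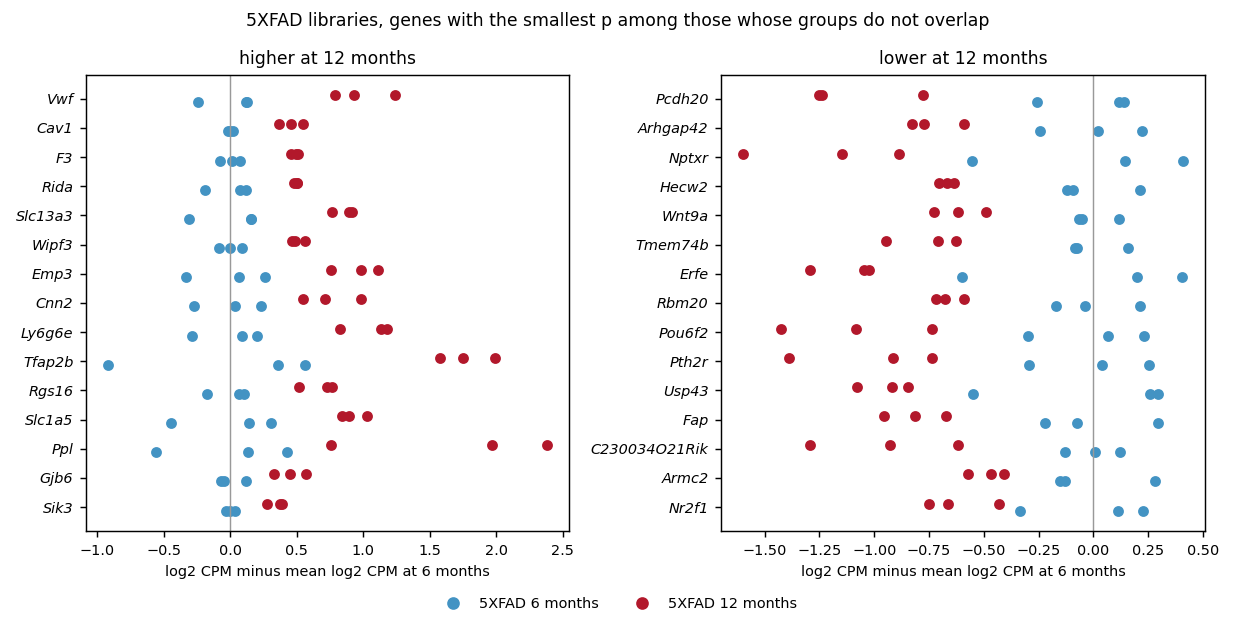
Level of the 15 genes higher and the 15 lower at 12 months with the smallest p among genes without overlap, each library shown as its log2 CPM minus the gene's mean at 6 months (blue: 6 months, red: 12 months). Within-group scatter is small for Cav1, F3 and Sik3 and wide for Nptxr and Erfe, and of the 30 genes only Vwf passed the test.

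Lists of border macrophage, pericyte and fibroblast, and meningeal markers had positive medians, which moved with single 6-month libraries, and no member passed in edgeR. Border macrophages are resident macrophages of the meninges and perivascular spaces. Cd163, their scavenger receptor, stood at 0.823, 1.87 and 1.12 CPM at 6 months and at 2.40, 2.24 and 2.67 CPM at 12 months, a log2 fold change of 0.94 (SE 0.31). Cbr2 stood at 0.292, 0.604 and 0.536 CPM and then at 1.29, 0.824 and 1.74 CPM, and F13a1 at 0.378, 2.02 and 1.06 CPM and then at 3.25, 3.63 and 2.12 CPM. All 3 were without overlap and none passed. At 3 months the 5XFAD libraries stood at 2.54 and 2.75 CPM for Cd163 and at 2.94 and 3.82 CPM for F13a1, values like those at 12 months. All 10 border macrophage markers were tested and had positive values, 5 of them without overlap (5.9% of all genes), with a median of 0.88 against 0.15 in WT. Without replicate 1 at 6 months the median was 0.51, and without replicate 2 at that age 1.21.

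Col3a1, a fibroblast collagen, stood at 1.04, 2.49 and 1.74 CPM at 6 months and at 4.52, 4.39 and 2.86 CPM at 12 months, a log2 fold change of 1.16 (SE 0.29). Anpep, an aminopeptidase of pericytes and fibroblasts, had a log2 fold change of 0.92 (SE 0.23). Both had been at or above 4.50 CPM in the 2 libraries at 3 months. Of 14 pericyte, smooth muscle and fibroblast markers 12 had positive values and 6 were higher without overlap (5.9% of all genes), with a median of 0.57 against 0.00 in WT. Ptgds, the prostaglandin D synthase of the leptomeninges, stood at 155, 507 and 289 CPM and then at 638, 602 and 583 CPM. Summed over 10 meningeal markers, the libraries stood at 260.3, 966.0 and 384.9 CPM at 6 months and at 865.6, 757.2 and 769.7 CPM at 12 months, against 438.6 to 819.3 CPM in WT at these ages. Replicate 2 at 6 months, the library richest in choroid plexus markers, had the highest sum, and replicates 1 and 3 at that age the lowest of the WT and 5XFAD libraries at both ages. The part of this tissue content in the values of Vwf, Vim, Serping1, Cd74 and the other genes that vascular and border cells express was not tested.

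Choroid plexus markers showed the reverse. Their 15 genes had a median log2 fold change of -4.85 and all had an unadjusted p under 0.05, but their summed level was 1154, 6586 and 242.2 CPM at 6 months and 246.1, 369.4 and 359.3 CPM at 12 months, so that replicate 3 at 6 months was below all libraries of 12 months. No choroid gene passed in edgeR and none was free of overlap, while DESeq2 called 12 of the 15 lower. Without replicate 3 at 6 months edgeR called 1 of them, Cldn2 (adjusted p = 0.0395). The 16 striatal markers summed to 1023 CPM in replicate 3 at 12 months and to 227.8 to 527.5 CPM in the other 5 libraries. Their median of 0.61 was -0.95 without that library.

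**Figure D5:**
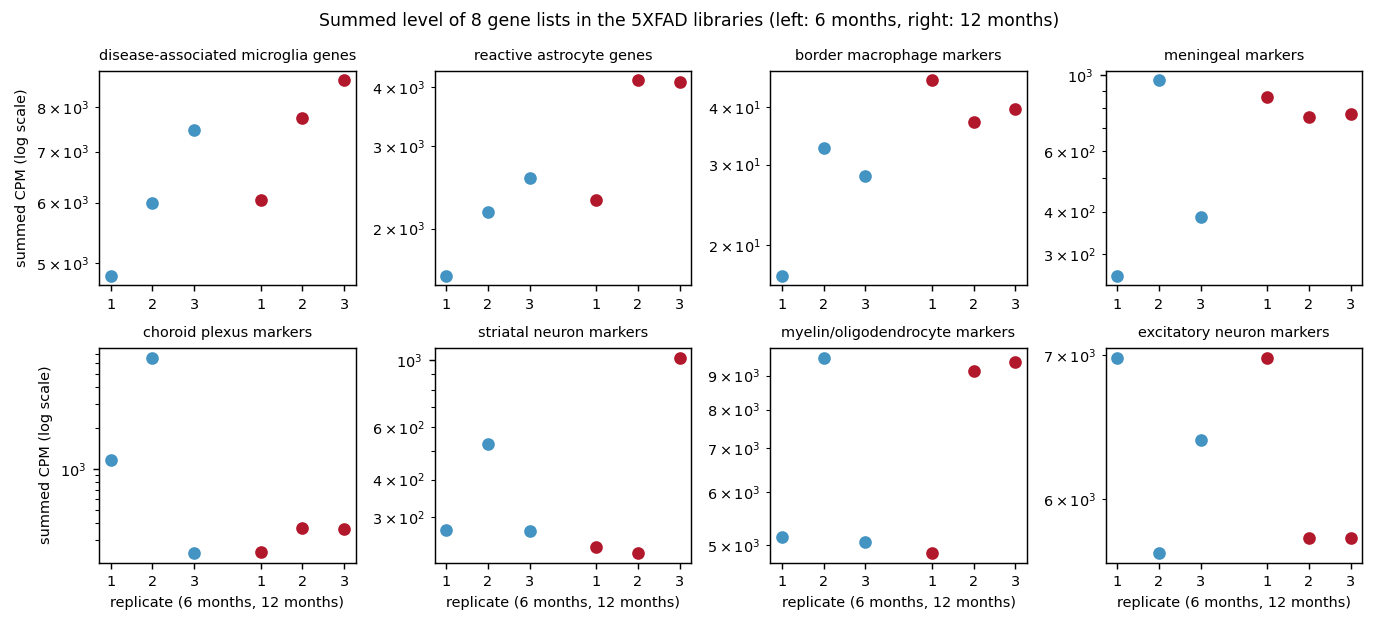
Summed CPM, on a log axis, of 8 gene lists in the 3 libraries at 6 months (blue) and the 3 at 12 months (red), by replicate number. Choroid plexus markers reach 6586 CPM in replicate 2 at 6 months and striatal markers 1023 CPM in replicate 3 at 12 months, while reactive astrocyte genes are lowest in replicate 1 of both ages.

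Most synaptic genes lay inside 1.5-fold, while lists of neuronal markers varied. Snap25, a presynaptic fusion protein, stood at 4292, 2774 and 3105 CPM at 6 months and at 3747, 3181 and 2972 CPM at 12 months, and its log2 fold change of -0.04 (SE 0.18) had a 95% interval of -0.42 to 0.34. Of 20 presynaptic genes 18 had intervals inside 1.5-fold, of 20 postsynaptic genes 16, and of 18 inhibitory neuron markers 13, with medians of -0.02, -0.04 and 0.08. Excitatory neuron markers had a median of -0.18 against -0.01 in WT, with 14 of 16 values negative and 8 intervals inside 1.5-fold. Emx1, a transcription factor of cortical excitatory neurons, had a log2 fold change of -0.49 (SE 0.18) without overlap, and Neurod6, another, one of 0.39 (SE 0.15) with overlap. Layer 5 and 6 neuron markers had a median of 0.25 against -0.13 in WT. Of these 14, 3 had intervals inside 1.5-fold and 2 were higher without overlap (5.9% of all genes). Activity-dependent genes had a median of 0.20, with 1 of 22 intervals inside 1.5-fold. All 26 nuclear respiratory chain genes and all 13 mitochondrially encoded genes had intervals inside 1.5-fold.

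Cholesterol synthesis genes gave small negative values. Insig1, a sterol sensor, stood at 130, 103 and 135 CPM at 6 months and at 102, 96.7 and 86.4 CPM at 12 months, a log2 fold change of -0.37 (SE 0.10) against -0.01 in WT. Lss, lanosterol synthase, stood at 57.2, 58.6 and 71.2 CPM and then at 50.2, 56.3 and 49.4 CPM, a log2 fold change of -0.26 (SE 0.08). Neither overlapped and neither passed. Of 21 genes tested of 22 listed, 17 had negative values and 20 had intervals inside 1.5-fold, with a median of -0.08. In the averaged contrast, which called 8.56% of all genes in either direction, 10 of the 21 had been called higher in 5XFAD.

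Stress and hormone response genes differed by small amounts. Xbp1, a transcription factor of the unfolded protein response, stood at 66.2, 69.2 and 67.8 CPM at 6 months and at 94.5, 84.3 and 81.3 CPM at 12 months, a log2 fold change of 0.36 (SE 0.08) against 0.13 in WT. Its 18 pathway genes had a median of 0.10 and 16 intervals inside 1.5-fold. Fkbp5, a chaperone induced by glucocorticoids, stood at 21.6, 22.7 and 22.7 CPM and then at 29.2, 30.6 and 29.6 CPM, a log2 fold change of 0.42 (SE 0.12), after 43.9 and 29.1 CPM at 3 months. Mt2, a metallothionein, had 0.53 (SE 0.18). Of the 14 glucocorticoid-responsive genes 13 had positive values, with a median of 0.33 against -0.03 in WT. Among the 19 plaque-associated extracellular protein genes tested, Smoc1 stood at 7.73, 13.9 and 12.1 CPM and then at 15.4, 18.6 and 20.9 CPM, a log2 fold change of 0.70 (SE 0.21), and the axon guidance gene Slit2 had -0.48 (SE 0.14), both without overlap. None of these passed in edgeR.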

How the data were processed

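RNA from the cortex of 5XFAD and WT mice was sequenced in 15 libraries, of which the 6 of 5XFAD at 6 and 12 months are compared here and the 5 of WT at these ages serve as the control for age. Per the labels' protocols, Trizol-extracted total RNA was depleted of ribosomal RNA and sequenced from stranded libraries, although the molecule field reads polyA RNA. The authors deposited raw whole-number counts per Ensembl gene without normalization. CASAVA, STAR, BWA and the genome build mm9 are named, without versions, per the submitters' processing notes. The counting program, the annotation release and the use of strand are not given in the sources used here, so the values of antisense genes and of similar copies, such as C4a with C4b and the H2 family, are uncertain. Of 37991 Ensembl identifiers, 32919 could be matched to a symbol and 5072 could not.

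The test was edgeR 4.0.16 (R 4.3.3) on the counts. Its filterByExpr function, with a minimum count of 10 and total of 15, left 21555 genes. TMM factors scaled the libraries, and all 15 libraries entered 1 robust quasi-likelihood model with a coefficient per group of genotype and age, because groups of 3 leave little information on spread. Calls were made under an adjusted p of 0.05 (Benjamini-Hochberg). The SE of a log2 fold change is its size over the root of the F statistic and so approximate, and 95% intervals use the t distribution on the model's degrees of freedom. CPM were computed from the deposited counts, per TMM-scaled library, except those of Ttr and Drd2 that describe the libraries, which are per library total. No overlap means that all 3 values of an age lie above all 3 of the other. Xist and Y-linked genes, each with 10 CPM as the limit, gave the sex, and a library counted as rich in neighbouring tissue where Ttr exceeded 100 CPM or Drd2 exceeded 30 CPM.

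There were 43 gene lists. The members of the comparison, the lists and the tests were chosen with earlier results of these data known, so a list's count and median are descriptions. Named genes were those called, then those with the smallest p and no overlap at 1 CPM or more up to 15 in a direction, the smallest p within each list (up to 4 members), the genes with the largest genotype effect, and a set of glial, neuronal and transgene-related genes. Stat3, Cxcr6 and Cd8a were added after their values were seen. Promoter sequences are RefSeq's on GRCm38.p6, and no coordinates of the authors' build were used. Alternatives were DESeq2 1.42.0, other scaling and filters, fewer libraries, a replicate block and a sex term, with 1 library left out in turn.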

Additional observations from a re-analysis of the deposited data

How the results depend on the processing

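The count of genes called for 5XFAD at 12 against 6 months was 0 with a minimum of 1 CPM in 3 libraries, with scaling by library totals, with the 6 compared or the 8 5XFAD libraries alone, with sex as a term, and without the libraries rich in neighbouring tissue. It was 148 by DESeq2 and ran from 0 to 23 when 1 library was left out, the 23 being reached without replicate 2 at 6 months. It was 1 with DESeq2's size factors and without a filter. With the replicate number as a block it was 0. Deviations of same-numbered libraries from their group means correlated at 0.53, 0.01 and 0.13 over 15041 genes, so the numbers were not taken to pair the libraries. The adjusted p of Vwf in edgeR was 0.0755 with the stricter filter, 0.0773 with library totals, 0.755 without the libraries rich in neighbouring tissue, 0.625 with 6 and 0.534 with 8 libraries, 0.0634 with the block and 0.0569 with sex as a term.

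For the averaged genotype contrast the count of 1846 was 3069 by DESeq2, 957 without the libraries rich in neighbouring tissue, and 810 to 2382 when 1 library was left out, the lowest being without replicate 2 of WT at 12 months, which leaves 1 library there that is assumed to vary like the other groups. In WT, DESeq2 called 2 genes for age. Genes higher in 5XFAD with an interval inside the limit numbered 602 of 1382, 473 to 695 when 1 library was left out, and 1018 at the wider limit of 2-fold.

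Without the libraries rich in neighbouring tissue the log2 fold change turned to -0.26 for B2m, -0.44 for C1qa, 1.01 for Cldn2, 0.23 for Enpp2, -0.54 for Pdcd1, -0.64 for Clec7a, -0.45 for Cst7, -0.39 for Ctse, -0.30 for Cx3cr1, -0.11 for H2-K1, -0.066 for Itgax, -0.39 for P2ry12, 0.15 for Snap25, -0.055 for Thy1, -0.62 for Tmem119, -0.47 for Tnfsf8, -0.51 for Trem2 and -0.62 for Tyrobp. Fewer libraries enter there, with 1 left at 6 months. With 1 library left out it ran from -0.043 to 0.34 for B2m, -0.11 to 0.77 for Clec7a, -0.12 to 0.26 for P2ry12, -0.15 to 0.46 for Tmem119 and -0.030 to 0.70 for Tyrobp, each lowest without replicate 1 and highest without replicate 3 at 6 months. For Snap25 it ran from -0.17 without replicate 2 to 0.17 without replicate 1 at 6 months, and Ccl3 turned to 0.14 without replicate 3 at 6 months. Of 1389 gene values recomputed, 1313 kept direction and side of the threshold, 37 newly passed, 10 no longer passed and 29 changed sign; the cause was not tested. Depth bears most on rare transcripts such as Cxcr6.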
